A study of Homo sapiens with 4 samples.

Results

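Mitochondria carry their own protein folding and protein degrading machinery, and the 9 nuclear genes described here encode its core in the matrix. They were taken by symbol from the deposited gene table, which lists 18885 genes, and all 9 were listed and tested. They encode the chaperonin HSPD1 and its co-chaperonin HSPE1, the mitochondrial HSP70 HSPA9 with its partners DNAJA3 and GRPEL1, the mitochondrial HSP90 TRAP1, the protease LONP1, and the peptidase CLPP with its unfoldase CLPX. RNA-seq was performed in MV4-11, a human acute myeloid leukemia (AML) cell line, with 2 control libraries (sh-NC) and 2 libraries after ANP32B knockdown (sh-ANP32B). The labels describe the sh-NC cells as untreated and give no shRNA for them, whereas the methods of the study describe an sh-NC control, lentiviral hairpins and puromycin selection. An effect of the hairpin vector or of selection therefore cannot be told apart from the loss of ANP32B. The study describes several hairpins against ANP32B, and both knockdown columns carry the same short name. If they share a hairpin, its effects on other genes cannot be told apart either. Neither source says whether the 2 libraries of a group came from separate cultures, so p-values measure only the spread between these libraries.

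Proteins made in the cytosol enter the matrix unfolded. HSPA9, driven by J-domain proteins such as DNAJA3 and by the nucleotide exchange factor GRPEL1, pulls them in and starts their folding, and the barrel formed by HSPD1 with its HSPE1 lid completes it. LONP1 and the CLPX-CLPP complex use ATP to unfold and cut damaged or surplus matrix proteins, and LONP1 and CLPP have been studied as drug targets in AML.

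The values are TPM, which are corrected for gene length, so levels can be compared between genes. Each library summed to between 997271 and 998546 TPM. The number of reads behind a TPM is unknown, so no counting error can be given. Genes of the mitochondrial genome made up 15.9% and 15.4% of each control total and 17.6% and 17.4% of each knockdown total, which lowers the share left for nuclear genes in the knockdown libraries. ANP32B itself was at 358 and 364 TPM in the controls and at 54.1 and 49.3 TPM after knockdown, 14.3% of the control mean. The cell line was checked against its markers. CD33, FLT3, SPI1, CEBPA, PTPRC, HOXA9 and MEIS1 were among the genes tested and MPO was not. Among markers of other cell types, CD3E, COL1A1 and EPCAM were not listed, and ALB, a liver marker, had 0.14 to 1.48 TPM.

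Most of these genes fell after ANP32B knockdown, and GRPEL1 was near its control level. The test was limma, fitted to log2(TPM + 1) of 16937 genes, and a gene was called when its log2 difference was beyond 0.5 in either direction and its p, adjusted after Benjamini and Hochberg, was below 0.05. Of the 9 genes, 7 were called lower and 0 higher (HSPD1, HSPE1, HSPA9, TRAP1, LONP1, CLPX and DNAJA3), whereas 10.1% of all genes tested were called lower and 17.9% higher. Their median log2 difference was -0.57, beside 0.08 for all genes tested. In 8 of the 9 genes both knockdown libraries lay below both sh-NC libraries, as did 32.1% of all genes tested. The summed TPM of the 9 genes was 2449 and 2453 in the controls and 1519 and 1551 after knockdown. In bulk RNA a smaller number of cells that express a gene and less RNA of that gene per cell cannot be told apart.

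**Figure D1:**
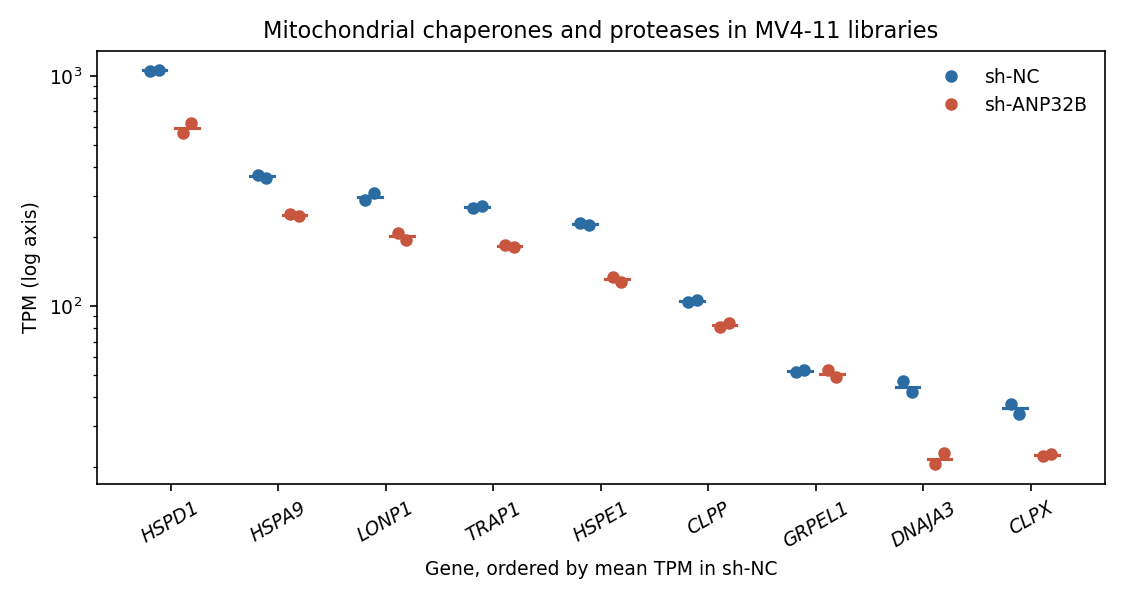
TPM of the 9 genes in each library on a log axis, ordered by the sh-NC mean, with points for libraries and short lines for group means (n = 2 libraries per group). The knockdown points lie below the sh-NC points for every gene except GRPEL1, whose libraries overlap between 49.1 and 52.5 TPM.

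In sh-NC the order of the levels ran from HSPD1 at 1054 ± 0.681 TPM (SD, n = 2) through HSPA9, LONP1, TRAP1, HSPE1, CLPP, GRPEL1 and DNAJA3 to CLPX at 35.8 ± 2.54 TPM (SD, n = 2). No neighbours in this order overlapped between their libraries. HSPD1 ranked 107 among the 16937 genes by its mean level in sh-NC. In sh-ANP32B the same order held down to GRPEL1. CLPX at 22.5 ± 0.234 TPM (SD, n = 2) and DNAJA3 at 21.7 ± 1.66 TPM (SD, n = 2) then overlapped, and these neighbours did not differ beyond their spread.

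Both chaperonin genes fell. HSPD1 (ENSG00000144381) occupies positions 197486584 to 197516737 of chromosome 2 (hg38, minus strand), with 12 exons in its canonical transcript. Its level was 1054 and 1055 TPM in sh-NC, and it was 566 and 625 TPM in sh-ANP32B. Both knockdown libraries were far below the controls, and they differed more from each other than the controls did. The knockdown mean was 56.5% of the control mean, with a log2 difference of -0.82 (standard error 0.053, adjusted p = 2.68e-04 from limma), and 3.55% of all genes had a lower one. HSPE1 (ENSG00000115541), which encodes the lid of the HSPD1 barrel, occupies positions 197500140 to 197503449 of the same chromosome (plus strand), with 4 exons. It had 228 and 224 TPM in sh-NC and 134 and 127 TPM in sh-ANP32B, without overlap. The knockdown mean was 57.7% of the control mean (log2 difference -0.79, standard error 0.044, adjusted p = 1.91e-04 from limma).

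HSPD1 and HSPE1 are transcribed away from each other. RefSeq gives HSPE1 a start site at 197500379 and HSPD1 start sites at 197500274 and 197499840, so that 104 bases separate the HSPE1 start from the nearer HSPD1 start. The stretch between these starts is shown because both genes fell by a like amount, and it is written on the strand of HSPE1 (GRCh38.p14, chr2:197500275-197500378). The first capitals mark a match to the palindromic core bound by NRF1 (the NRF1-type motif), and the second a CACGTG E-box, the letters that MYC-type factors bind. The upstream part of the other HSPD1 window is written on the strand of HSPD1 (chr2:197499941-197500090). Its first capitals mark a match to a heat shock element of 4 alternating units, which contains a GAANNTTC match, and its second a TGCAAT match on the opposite strand, the letters that CHOP-type factors read.
HSPE1 to HSPD1: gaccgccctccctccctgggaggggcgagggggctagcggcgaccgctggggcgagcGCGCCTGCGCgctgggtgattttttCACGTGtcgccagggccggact
HSPD1 upstream: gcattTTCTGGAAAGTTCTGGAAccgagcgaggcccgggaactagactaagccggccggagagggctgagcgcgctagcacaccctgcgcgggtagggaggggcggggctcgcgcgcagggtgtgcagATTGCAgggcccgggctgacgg

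HSPD1 and HSPE1 share 135 exonic bases on opposite strands, and the strand setting of the quantification is not given in the sources used here. HSPE1 also shares 192 exonic bases with HSPE1-MOB4 on the same strand, which the table does not list. GENCODE names 18 pseudogenes of HSPD1 and 26 of HSPE1, whose reads could have been split from those of the parent genes. Of these, 2 and 3 were listed. The highest of them, HSPD1P1, had 13.4 and 14.1 TPM in sh-NC and 6.51 and 7.08 TPM in sh-ANP32B, far below HSPD1 itself.

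In the HSP70 system, HSPA9 and DNAJA3 fell and GRPEL1 was not called. HSPA9 (ENSG00000113013; minus strand of chromosome 5, 138553756 to 138575675, 17 exons), the motor that draws proteins through the inner membrane, had 371 and 359 TPM in sh-NC and 251 and 246 TPM in sh-ANP32B. The groups did not overlap, and the knockdown mean was 68.1% of the control mean (log2 difference -0.55, standard error 0.038, adjusted p = 3.09e-04 from limma). After quantile normalization the log2 difference was -0.48, inside the fold limit. DNAJA3 (ENSG00000103423; plus strand of chromosome 16, 4425805 to 4456775, 12 exons), the J-domain protein that stimulates HSPA9, had 47.0 and 42.2 TPM in sh-NC and 20.5 and 22.8 TPM in sh-ANP32B. Its knockdown mean was 48.6% of the control mean, the lowest share of the 9 genes. The log2 difference was -1.01 (standard error 0.089, adjusted p = 6.32e-04 from limma), and 1.65% of all genes had a lower one. GRPEL1 (ENSG00000109519; minus strand of chromosome 4, 7058671 to 7068085, 4 exons), which releases ADP from HSPA9, had 51.4 and 52.5 TPM in sh-NC and 52.4 and 49.1 TPM in sh-ANP32B. These libraries overlapped, and the log2 difference of -0.03 did not pass the test (adjusted p = 0.679 from limma). Its 95% confidence interval ran from -0.18 to 0.11 on the log2 scale.

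TRAP1 (ENSG00000126602; minus strand of chromosome 16, 3651639 to 3717553, 18 exons) is the mitochondrial member of the HSP90 family. It had 267 and 271 TPM in sh-NC and 183 and 180 TPM in sh-ANP32B, without overlap. The knockdown mean was 67.6% of the control mean (log2 difference -0.56, standard error 0.037, adjusted p = 2.80e-04 from limma). TRAP1 shares 1477 exonic bases with DNASE1 on the opposite strand. DNASE1 had 13.3 and 15 TPM in sh-NC and 23.3 and 21.3 TPM in sh-ANP32B, which is low beside TRAP1 and in the other direction.

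Among the proteases, LONP1 and CLPX fell and CLPP was not called. LONP1 (ENSG00000196365; minus strand of chromosome 19, 5691834 to 5720572, 18 exons) carries its ATPase and protease in 1 chain. It had 289 and 309 TPM in sh-NC and 208 and 194 TPM in sh-ANP32B. The groups were well apart, and the knockdown mean was 67.3% of the control mean (log2 difference -0.57, standard error 0.054, adjusted p = 8.14e-04 from limma). CLPX (ENSG00000166855; minus strand of chromosome 15, 65148219 to 65185342, 14 exons) unfolds proteins and feeds them into CLPP. It had 37.6 and 34.1 TPM in sh-NC and 22.3 and 22.6 TPM in sh-ANP32B. The knockdown mean was 62.7% of the control mean (log2 difference -0.65, standard error 0.077, adjusted p = 0.00170 from limma). CLPP (ENSG00000125656; plus strand of chromosome 19, 6361531 to 6370242, 6 exons) forms the peptidase chamber. It had 104 and 106 TPM in sh-NC and 81.1 and 84.5 TPM in sh-ANP32B, so its groups did not overlap either. Its log2 difference of -0.34 lay inside the fold limit (standard error 0.046, adjusted p = 0.00274 from limma), with a 95% confidence interval from -0.46 to -0.23. LONP1 shares 42 exonic bases with RPL36, a ribosomal protein gene on the opposite strand. RPL36 had 652 and 684 TPM in sh-NC and 463 and 463 TPM in sh-ANP32B, 69.3% of the control mean, which is above LONP1 and in the same direction. Its part in the LONP1 values was not tested.

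**Figure D2:**
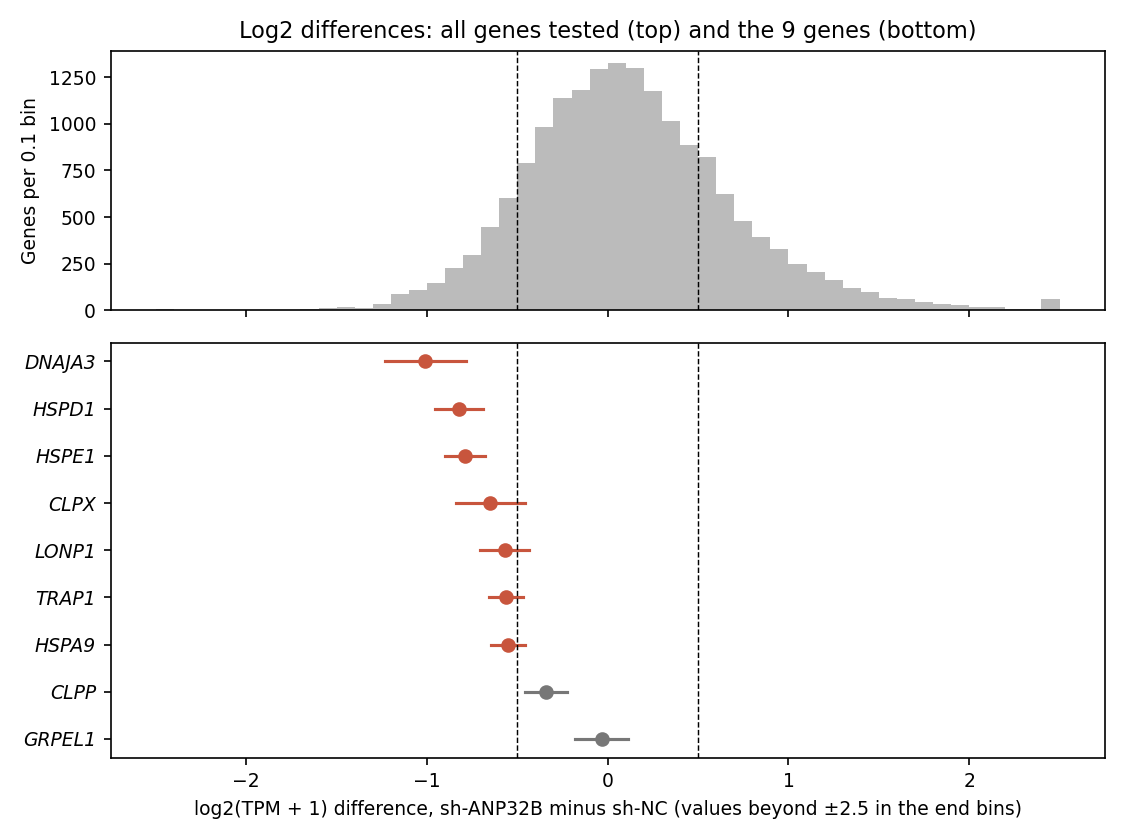
Log2(TPM + 1) differences, sh-ANP32B minus sh-NC, as a histogram of the 16937 genes tested (top) and as points with 95% confidence intervals for the 9 genes (bottom, red where called lower), with dashed lines at the fold limit of 0.5. The 9 points run from -1.01 for DNAJA3 to -0.03 for GRPEL1, while the median of all genes is 0.08.

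The promoter windows of these genes, from 250 bases before to 50 bases after the RefSeq start site, were compared for 5 short motifs, and for the longer heat shock element described above, which was added after the sequence had been seen. RefSeq windows (GRCh38.p14) were used for 7 of the 9 genes, and CLPP and GRPEL1 were not matched. All 7 genes with a window were called lower, whereas CLPP and GRPEL1 were not called. Motifs could therefore not be compared between called and uncalled members. CACGTG was found in the windows of HSPD1, HSPE1, HSPA9 and LONP1, 4 of the 7 genes and 4 of their 9 windows, and in 7.26% of all 35116 windows. HSPD1 and HSPE1 held the same single site at 197500357. The NRF1-type motif was found for 5 of the 7 genes (HSPD1, HSPE1, CLPX, DNAJA3 and LONP1), in 5 of their 9 windows and in 5.78% of all windows, and HSPD1 and HSPE1 again shared a single site, at 197500332. CCGGAAG, an ETS-type site such as GABPA binds, was found for DNAJA3 and LONP1 and in 10.3% of all windows. GAANNTTC and TGCAAT were found for HSPD1 alone of the 7 genes, and in 6.77% and 8.21% of all windows. The 4-unit heat shock element was also found for HSPD1 alone, and in 9 of the 35116 windows (0.0256%). None of the 6 motifs was matched in the window of TRAP1. Any link between motifs and log2 differences was not tested. Motifs were counted on both strands, and the windows of all genes differ in base composition. A match describes letters and was not tested for binding.

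Upstream stretches are shown for HSPA9, the other chaperone gene with an E-box, for LONP1, the protease gene with a pair of them, and for DNAJA3, the gene with the largest log2 decrease. HSPA9 is written on its own strand from chr5:138575402-138575501, with CACGTG in capitals. LONP1 is from chr19:5720147-5720396, also on its own strand, with capitals that mark both E-boxes and, between them, the ETS-type site. DNAJA3 is from chr16:4425738-4425867, with capitals that mark first the ETS-type site, then a pair of overlapping NRF1-type matches and last another one next to the start.
HSPA9: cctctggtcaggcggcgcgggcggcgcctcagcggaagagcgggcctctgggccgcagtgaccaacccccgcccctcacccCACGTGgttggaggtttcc
LONP1: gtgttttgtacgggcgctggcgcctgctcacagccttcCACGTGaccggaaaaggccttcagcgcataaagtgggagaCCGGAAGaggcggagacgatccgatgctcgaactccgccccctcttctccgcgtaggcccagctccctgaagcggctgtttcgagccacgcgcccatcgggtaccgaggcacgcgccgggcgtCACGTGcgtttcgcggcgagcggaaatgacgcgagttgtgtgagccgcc
DNAJA3: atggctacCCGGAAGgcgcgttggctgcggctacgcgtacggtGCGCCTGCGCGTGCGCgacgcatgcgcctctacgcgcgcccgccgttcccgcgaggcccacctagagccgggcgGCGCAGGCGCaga

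**Figure D3:**
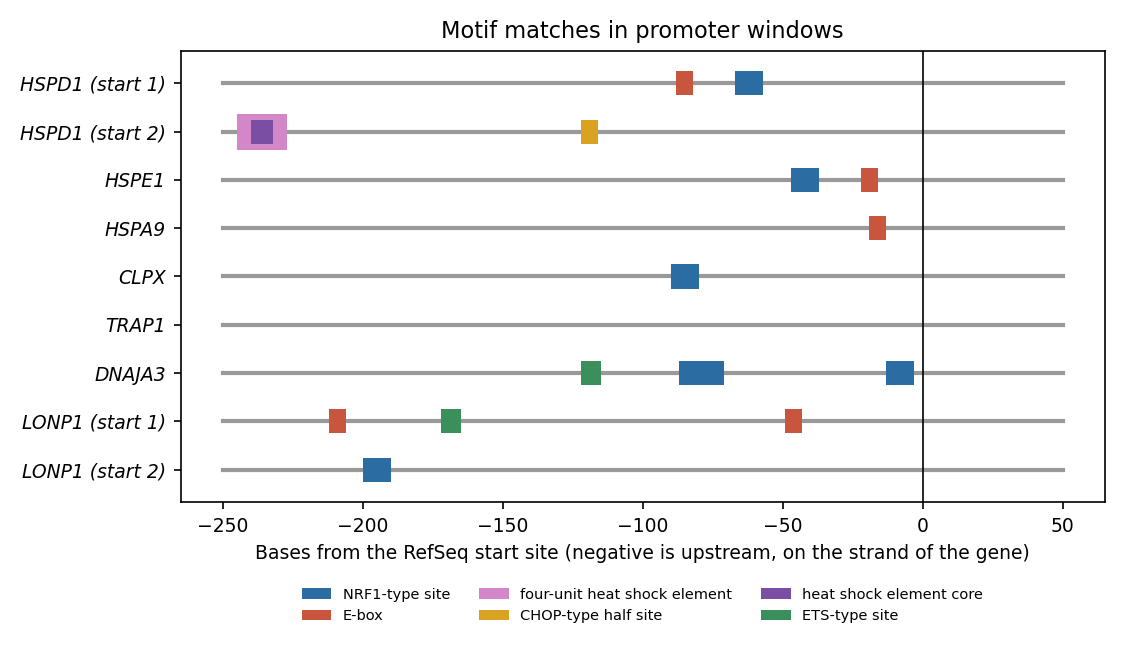
Motif matches in the RefSeq promoter windows of 7 genes, drawn as bars to scale against the distance in bases from the start site, with each gene on its own strand and HSPD1 and LONP1 shown for both of their start sites. The E-box of HSPE1 begins at -22 and that of HSPA9 at -19, LONP1 has E-boxes at -212 and -49, and the TRAP1 window has no match.

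Transcription factors linked to these motifs or to mitochondrial genes were measured too. MYC, a general activator of growth genes, had 376 and 370 TPM in sh-NC and 240 and 236 TPM in sh-ANP32B and was called lower (log2 difference -0.65, adjusted p = 1.91e-04 from limma). NRF1, an activator of nuclear genes for mitochondria, had 17.7 and 16.4 TPM against 11.2 and 11.8 TPM (log2 difference -0.53, adjusted p = 0.00747 from limma). TFAM, which packages mitochondrial DNA, had 37.8 and 38.4 TPM against 25.6 and 23.4 TPM (log2 difference -0.62, adjusted p = 0.00165 from limma). These were the 3 called lower of the 8 transcription factors listed, and 0 were called higher. Of all genes tested, 10.1% were called lower and 17.9% higher. GABPA had 31.4 and 33.8 TPM against 36.3 and 32.1 TPM, with overlapping libraries. HSF1, the heat shock factor, had 142 and 136 TPM against 111 and 113 TPM, and its log2 difference of -0.31 was inside the fold limit (adjusted p = 0.00346 from limma). Any part of these factors in the lower chaperone and protease RNA was not tested.

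RNA ratios within each library were compared between partners, and between the proteases LONP1 and CLPP. HSPD1 per HSPE1 was 4.61 and 4.70 in the controls and 4.23 and 4.91 after knockdown, with overlap. HSPA9 per GRPEL1 did not overlap, at 7.22 and 6.84 in the controls and 4.80 and 5.0 after knockdown, so that there was less motor RNA for each exchange factor RNA. HSPA9 per DNAJA3 moved the other way, from 7.88 and 8.52 to 12.3 and 10.7. CLPP per CLPX was 2.77 and 3.11 in the controls and 3.64 and 3.73 after knockdown, and LONP1 per CLPP was 2.77 and 2.91 against 2.56 and 2.30. The last 4 of these 5 ratios did not overlap between the groups. Lack of overlap was common, with 32.1% of all genes tested lower and 42.5% higher without overlap. With 2 libraries in each group the smallest p that an exact two-sided permutation test allows is 0.333, which these 4 ratios reached (Benjamini-Hochberg adjusted p = 0.417 over the 5 ratios).

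**Figure D4:**
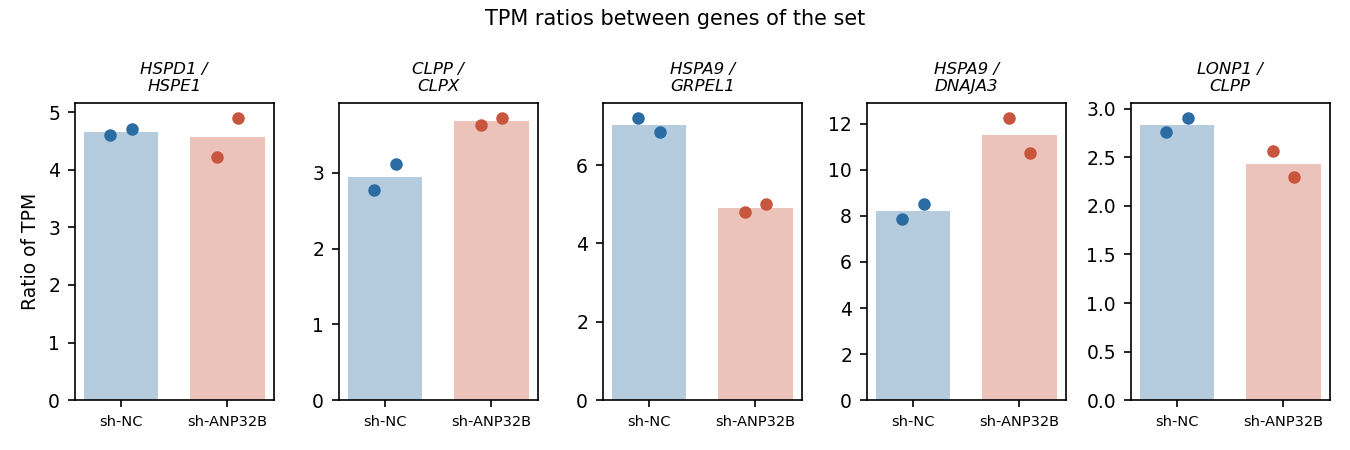
Ratios of TPM between genes of the set in each library, with bars from 0 for group means and points for libraries (n = 2 per group). HSPD1 per HSPE1 overlaps between groups at 4.23 to 4.91, whereas HSPA9 per DNAJA3 lies at 7.88 and 8.52 in the controls and at 12.3 and 10.7 after knockdown.

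Of 8 partners of the HSP70 motor and other mitochondrial chaperones, 7 were tested, with a median log2 difference of -0.40. At the fold limit, 0 were called in either direction by limma, beside 10.1% of all genes tested called lower and 17.9% higher. The number called lower was 1 or 2 without any single library, 1 with a pseudocount of 0.1 or with quantile normalization, and 2 with median-of-ratios scaling. Without the fold limit, 4 had an adjusted p below 0.05 and were lower, beside 19.7% of all genes. GRPEL2, the second exchange factor, had 25.8 and 24.5 TPM in sh-NC and 18 and 19.6 TPM in sh-ANP32B (log2 difference -0.40, adjusted p = 0.0121 from limma), whereas GRPEL1 overlapped between the groups. TIMM44, which anchors HSPA9 at the import channel, had 109 and 116 TPM against 82.5 and 80.3 TPM (log2 difference -0.46, adjusted p = 0.00142 from limma). DNAJC19, a J-domain protein of the import motor, had 34.9 and 33.3 TPM against 23.0 and 25.2 TPM (log2 difference -0.49, adjusted p = 0.00473 from limma). CLPB, a disaggregase, had 55.1 and 47.2 TPM against 38.2 and 41.8 TPM (log2 difference -0.34, adjusted p = 0.0292 from limma).

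Of 16 other mitochondrial proteases and scaffolds, 5 were called lower and 0 higher, beside 10.1% and 17.9% of all genes tested. The list had a median log2 difference of -0.25. MIPEP, a peptidase that trims imported proteins, had the lowest value, with 20.4 and 21.5 TPM in sh-NC and 11.0 and 9.03 TPM in sh-ANP32B (log2 difference -1.0, adjusted p = 0.00164 from limma). The others were IMMP1L, a subunit of the inner membrane peptidase, and PHB1, PHB2 and STOML2, which scaffold the inner membrane proteases. PHB1 had 205 and 206 TPM against 122 and 126 TPM, and PHB2 had 383 and 382 TPM against 219 and 254 TPM. The ATP-dependent proteases of the inner membrane were nearer to their control level. YME1L1 had 105 and 107 TPM against 115 and 106 TPM, with overlapping libraries. AFG3L2 had 74.2 and 72.9 TPM against 62.1 and 57.3 TPM (log2 difference -0.30), and SPG7, its partner, had 108 and 110 TPM against 127 and 125 TPM (log2 difference 0.20), both inside the fold limit.

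Of the 18 subunits of the TOM and TIM import channels, 6 were called lower and 0 higher. Among all genes tested, 10.1% were called lower and 17.9% higher. All 18 had a negative log2 difference (median -0.29), as did 7402 of the 16937 genes tested. TOMM6 among them had a log2 difference of -0.76 with a standard error of 1.57, at 6.0 and 262 TPM in sh-ANP32B. Its mean TPM was higher in sh-ANP32B (134) than in sh-NC (71.9), so its direction is not settled. TOMM40, the pore of the outer membrane, had the lowest value among those called, with 164 and 165 TPM in sh-NC and 97.8 and 98.7 TPM in sh-ANP32B (log2 difference -0.74, adjusted p = 1.82e-04 from limma). TIMM50, the receptor of the inner membrane channel, had 110 and 102 TPM against 68.1 and 69.0 TPM. Without replicate 1 of sh-NC, 4 were called lower.

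Enzymes of the citrate cycle and pyruvate dehydrogenase gave a view of matrix proteins without a chaperone role. Of these 20 genes, 3 were called lower (CS, SUCLG2 and FH) and 0 higher, beside 10.1% and 17.9% of all genes tested. The list had a median log2 difference of -0.17. CS, which makes citrate, had 235 and 231 TPM in sh-NC and 148 and 156 TPM in sh-ANP32B (log2 difference -0.61, adjusted p = 3.12e-04 from limma). OGDH, of the same cycle, had 82.8 and 80.0 TPM against 110 and 103 TPM (log2 difference 0.39), inside the fold limit. The median of the 9 chaperones and proteases was thus lower than that of each other list. This is a description with no test of the difference between lists, which were chosen with earlier results of these data known.

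Chaperones of the cytosol and endoplasmic reticulum included relatives of the 9 genes. Of 14 genes, 3 were called lower (HSP90AB1, HSP90AA1 and HSPB1) and 0 higher, beside 10.1% and 17.9% of all genes tested. The list had a median log2 difference of -0.19. HSP90AB1, the cytosolic relative of TRAP1, had 1655 and 1680 TPM in sh-NC and 1034 and 1014 TPM in sh-ANP32B (log2 difference -0.70, adjusted p = 1.35e-04 from limma). HSPA8, the cytosolic relative of HSPA9, had 820 and 915 TPM against 652 and 659 TPM, and its log2 difference of -0.40 was inside the fold limit (adjusted p = 0.00335 from limma). HSPA5, the relative in the endoplasmic reticulum, had 311 and 311 TPM against 377 and 375 TPM, with a log2 difference of 0.27 (adjusted p = 0.00193 from limma). The heat-inducible HSPA1A and HSPA1B were low. HSPA1A had 3.23 and 3.48 TPM against 4.62 and 4.22 TPM, and HSPA1B had 4.86 and 5.26 TPM against 6.78 and 6.52 TPM. Both were higher in sh-ANP32B without overlap, as were 42.5% of all genes tested. Neither passed the test (adjusted p = 0.156 for HSPA1A and 0.0909 for HSPA1B from limma).

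**Figure D5:**
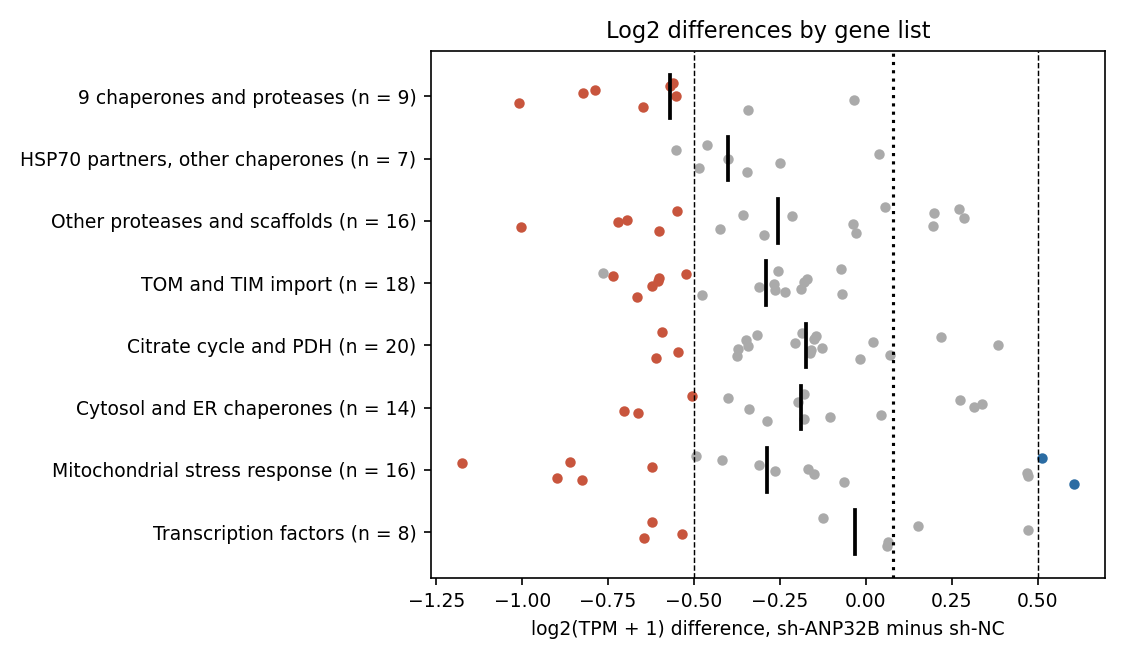
Log2(TPM + 1) differences, sh-ANP32B minus sh-NC, for each tested gene of 8 lists, with red for genes called lower, blue for genes called higher, grey for the rest, black bars for list medians, dashed lines at the fold limit of 0.5 and a dotted line at the median of all genes (0.08). The median of the 9 chaperones and proteases is -0.57, and the other medians run from -0.40 to -0.03.

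Cells that lack matrix folding capacity are known to respond through ATF4, ATF5 and DDIT3 (CHOP), and genes of this response were therefore counted. Of 18 genes, 16 were tested, 5 were called lower and 2 higher, beside 10.1% and 17.9% of all genes tested. The list had a median log2 difference of -0.29. ATF4 had 384 and 409 TPM in sh-NC and 230 and 216 TPM in sh-ANP32B (log2 difference -0.83, adjusted p = 2.46e-04 from limma). ATF5, which induces HSPD1 and LONP1 in mitochondrial stress, had 67.1 and 68.8 TPM against 40.3 and 32.2 TPM (log2 difference -0.90, adjusted p = 0.00183 from limma). DDIT3 had 15 and 16.5 TPM against 12.2 and 13.6 TPM and did not pass the test (adjusted p = 0.0912 from limma). EIF2AK1, the kinase that relays mitochondrial stress to ATF4, was also called lower (log2 difference -0.62). The lowest value was that of PHGDH, the first enzyme of serine synthesis and a target of ATF4, with 613 and 599 TPM against 275 and 260 TPM (log2 difference -1.18, adjusted p = 8.53e-05 from limma), and PSAT1, the next enzyme, had a log2 difference of -0.86. ASNS and SLC7A11, further targets of ATF4, were called higher but were low. ASNS had 6.91 and 7.29 TPM in sh-NC and 12.2 and 10.5 TPM in sh-ANP32B (log2 difference 0.61, adjusted p = 0.0117 from limma). The number called higher was 0 without replicate 1 of sh-ANP32B, and 1 without any other library, under median-of-ratios scaling and under quantile normalization.

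Genes with the most similar profile were sought by the Euclidean distance between log2(TPM + 1) values of the 4 libraries, each centred on its own mean, among genes averaging 10 TPM or more. Nearest to HSPD1 were CENPV, ALYREF and RPS15, at distances of 0.0216, 0.0333 and 0.0365. Nearest to LONP1 were FANCC, DTD1 and KIAA1191, at distances of 0.0112, 0.0141 and 0.0192. With 4 libraries in 2 groups, such a profile holds little more than the size of the group difference and the spread of replicates.

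The markers of the myeloid lineage were measured beside these results. Of the 7 tested, 2 were called higher and 1 lower, beside 17.9% and 10.1% of all genes tested. With median-of-ratios scaling, 1 of the markers was called higher. PTPRC had 62.3 and 64.1 TPM in sh-NC and 142 and 141 TPM in sh-ANP32B, and SPI1 had 250 and 257 TPM against 361 and 361 TPM, while MEIS1 had 44.2 and 47.9 TPM against 30.2 and 29.6 TPM. The part of a shift in cell state in the lower chaperone and protease RNA was not tested.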

How the data were processed

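RNA-seq of MV4-11 cells was analysed for 2 sh-NC and 2 sh-ANP32B libraries. Per the labels and the methods of the study, the authors aligned reads to hg38 with HISAT2 (version 2.0.5). They deposited TPM per gene and library, a unit read from the column sums. The tool, annotation and strand setting behind the TPM are not given in the sources used here. Because TPM keep no read numbers, depth is unknown. The knockdown columns share a short name that differs from the labels and were assigned as the only group besides the controls. Of 18885 Ensembl identifiers, 17290 had a GENCODE symbol, and GENCODE version 44 on hg38 gave positions. Promoter sequences come from RefSeq (GRCh38.p14).

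The test used in the study needs counts, so limma (version 3.58.1, R 4.3.3; lmFit and eBayes with a trend) was used on log2(TPM + 1), a scale that understates changes of low genes. Genes that reached 1 TPM in 2 or more libraries (16937) entered the test, with Benjamini-Hochberg adjustment over all of them. The fit was tested on simulated data with known changes. Python 3.11.15, pandas 2.3.3, numpy 2.4.6, matplotlib 3.10.9 and scipy 1.17.1 made the summaries and figures.

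The members, lists and motifs were chosen with earlier results of these data known. Named genes were the 9 members, ANP32B, direct partners and relatives, the lowest and highest called gene of each list, and the 3 genes nearest to HSPD1 and to LONP1. Other genes were named after their values were seen. Alternatives covered the replicate block, pseudocount, low-value filter, variance trend, scaling, call rule and each library left out. Some items are not reported here.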

Additional observations from a re-analysis of the deposited data

How the results depend on the processing

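Over all alternatives, the log2 differences of 8 of the 9 genes stayed negative. With each library left out in turn, HSPD1 stayed between -0.90 and -0.75, DNAJA3 between -1.08 and -0.93 and GRPEL1 between -0.079 and 0.013. GRPEL1 was 0.0001 when the TPM were rescaled without genes of the mitochondrial genome. A fold limit of 1 left 1 of the 9 genes called lower (DNAJA3), with 273 of all genes lower and 1136 higher. Without a fold limit, 3342 of all genes were lower. Quantile normalization left 6 of the 9 called lower, since HSPA9 was inside the fold limit. It moved the median log2 difference of all genes from 0.08 to -0.04. The share of lower genes among all calls was 36.1% with the deposited TPM, 49.0% with median-of-ratios scaling and 50.2% with quantile normalization. Deviations from the group mean did not go together in libraries of the same number (correlation -0.0232), so the numbers were not read as a pairing. With the replicate number as a block, 7 of the 9 genes were called lower, and 1671 of all genes were lower and 2853 higher. The block moved the list of HSP70 partners and other mitochondrial chaperones from 0 to 1 called lower. The import list had 1 called higher (TOMM6) without replicate 1 of sh-ANP32B.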

Other observations

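HSPA9 also serves the assembly of iron-sulfur clusters, and CLPX takes part in heme synthesis through ALAS1, so genes of these pathways were added after the values had been seen. Of 12 iron-sulfur cluster assembly genes, 1 was called lower and 0 higher, beside 10.1% and 17.9% of all genes tested. The list had a median log2 difference of -0.20. The gene called lower was BOLA3, which hands clusters to their targets. It had 38.0 and 41.4 TPM in sh-NC and 17.7 and 20.4 TPM in sh-ANP32B (log2 difference -1.02, adjusted p = 7.35e-04 from limma). NFS1 and ISCU, the core of the assembly machinery, had 32.7 and 36.7 TPM against 38.0 and 35.8 TPM, and 63.8 and 61.5 TPM against 68.8 and 68.9 TPM. ALAS1, the first enzyme of heme synthesis, had 81.0 and 88.2 TPM against 92.4 and 95.4 TPM and did not pass the test (adjusted p = 0.0834 from limma).

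TOMM6, a small subunit of the outer membrane channel, had 72.7 and 71.1 TPM in sh-NC but 6.0 and 262 TPM in the sh-ANP32B libraries. It shares 637 exonic bases with ENSG00000124593 on the same strand, which had 58.4 and 52.8 TPM in sh-NC and 79.3 and 24.5 TPM in sh-ANP32B, high where TOMM6 was low. PAM16, a regulator of the HSPA9 motor, differed within both groups, with 65.6 and 43.3 TPM in sh-NC and 44.3 and 29.4 TPM in sh-ANP32B, and it shares 522 exonic bases with CORO7-PAM16 on the same strand, which the table does not list. The role of these overlaps in the spread was not tested.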
